A study of Mus musculus with 2 samples.

Results

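Microtubules are polymers of alpha- and beta-tubulin that form the axoneme of the sperm flagellum, the manchette that shapes the spermatid head and the spindles of meiosis. Their behaviour is set by proteins that bind the lattice or the ends, by enzymes that sever the polymer, and by enzymes that add amino acids to the tubulin tails or take them off. FMRP is an RNA-binding protein known as a regulator of translation and of the transport of mRNA along microtubules. The question addressed here was how the transcripts of this microtubule machinery were recovered with FMRP from the testis.

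The members were the genes whose symbol names a tubulin, a microtubule-associated protein (MAP), an end-binding or severing protein, or an enzyme that acts on tubulin. They were taken by a symbol pattern from the deposited table of FMRP RNA immunoprecipitation sequencing (RIP-seq), in which RNA is sequenced that comes down with an antibody to a protein. The pattern matched 52 of the 4788 rows, which carried 51 gene symbols, as *Mast3* had 1 row on its chromosome and 1 on a patch scaffold. Both libraries came from testes of adult wild type male mice. An aliquot of the lysate was the input (1 library), and RNA precipitated from lysate with an anti-FMRP antibody was the FMRP RIP (1 library). How many animals gave the lysate is not given in the sources used here, and no IgG library was used here. With 1 library per group there was no replicate error and no test between the groups.

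The values were counts of reads scaled to a library total of 1000000 (CPM), not divided by transcript length, so levels are compared between the libraries and not between genes. The steps between the values gave library totals of 30849871 reads (input) and 36506932 reads (FMRP RIP). The measure was the log2 ratio, log2 of FMRP RIP CPM plus 1 over input CPM plus 1, which understates the difference of low genes. The ratio of the CPM values without this pseudocount is given with an exact Clopper-Pearson 95% interval, which covers counting error only. All rows of the table are protein-coding genes that the authors had marked as higher in the FMRP RIP, so the direction of every member was fixed by the table. Of 27 marker genes of spermatids, spermatocytes and spermatogonia, 7 were listed (1 of 10, 4 of 10 and 2 of 7). Of 24 markers of Sertoli, Leydig, peritubular, vascular and blood cells, 1 was listed, *Vwf*. Of all protein-coding genes of the RefSeq annotation, 21.2% were listed. A gene is listed only if the authors marked it as higher in the FMRP RIP. These counts are thus no check of the tissue label and no measure of its cell types.

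The regulators of microtubules were often in the table, and the tubulins themselves were almost wholly outside it. The RefSeq annotation of GRCm38.p6 holds 105 protein-coding genes that match the pattern, of which 51 (48.6%) were listed, beside 21.2% of all its protein-coding genes. Of the 20 tubulin genes, 1 was listed, *Tubg1*, and no alpha- or beta-tubulin gene was. None of the 10 stathmin and tubulin-folding cofactor genes was listed, which sequester tubulin dimers or assemble them. In contrast, 10 of 13 tubulin ligases of the *Ttll* family, 6 of 8 carboxypeptidases that shorten tubulin tails, 16 of 23 lattice-binding MAPs and all 3 *Camsap* genes were listed. The severing group was less covered, with 2 of 6 genes listed. Of the end-binding and growth-promoting factors, 8 of 16 were listed, and the end-binding genes *Mapre1*, *Mapre2* and *Mapre3* were among the others. Genes outside the table had no value here, so being outside it is no measure of their level or of their binding. In whole testis, fewer cells of a type and less RNA per cell cannot be told apart, and this holds for every input level given here.

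**Figure D1:**
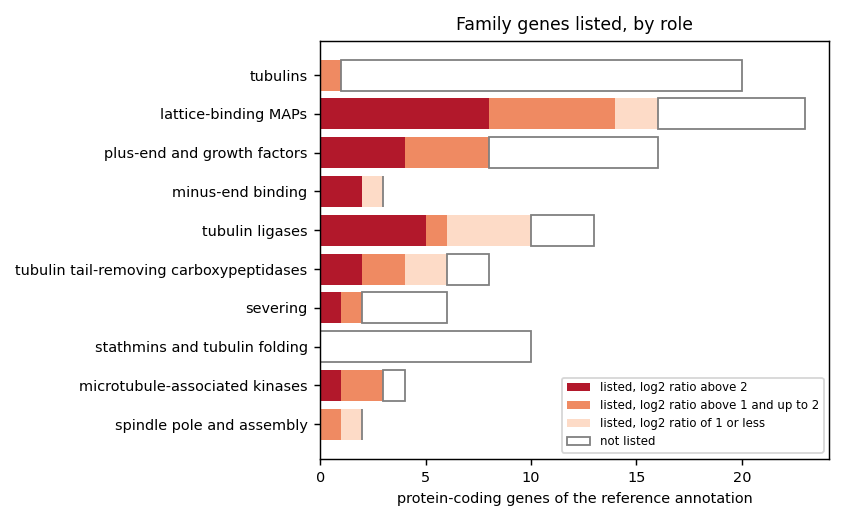
Number of protein-coding genes of the reference annotation in each role group (horizontal axis), split into listed genes by their log2 ratio and genes that were not listed (white). The tubulins had 1 of 20 genes listed and the tubulin ligases 10 of 13.

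The listed and the unlisted genes differed in gene span, the length of genome between its ends. The median span in the annotation was 84.5 kb for the 51 listed genes and 16.8 kb for the 54 others. The tubulin genes had a median span of 7.03 kb, and the stathmin and folding cofactor genes 21.9 kb. *Tubg1*, at 6.48 kb, and *Map10*, at 3.54 kb, were short and listed. Among the members, span and log2 ratio were weakly related (Spearman's rho 0.13 over 52 rows, which share both libraries; 0.16 over all listed rows). The part of span in the listing was not tested.

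As a group, the listed members had a higher median than the table as a whole. Their median log2 ratio was 1.83, with quartiles of 1.18 and 2.34, beside a median of 1.35 and quartiles of 0.92 and 2.001 over all 4788 rows. With *Mast3* taken once, the median was 1.91. A log2 ratio above 1 was reached by 42 of the 52 rows (80.8%), beside 70.1% of all rows. The gap in this share was smaller without a pseudocount, at 84.6% beside 81.2%, and among rows with at least 10 CPM in the input, at 79.4% beside 78.1%. A log2 ratio above 2, a limit chosen after the values were seen, was reached by 23 (44.2%), beside 25.0%. All 52 were at a ratio of 1.5 or more with the pseudocount, beside 97.3% of all rows. The paper names a fold change of at least 1.5 as a limit for its FMRP targets. Without the pseudocount, all 4775 rows above 0 in the input were at 1.5 or more. This count was therefore fixed by the selection and is no result about the members. Summed over the members, 2113 CPM of input stood against 9964 CPM after FMRP RIP, or 0.211% and 0.996% of the reads, a ratio of 4.71. The ratio of the sums over all listed rows was 3.89. The highest members were *Clip1* and *Apc*, at ranks 68 and 98 of 4788, and 10 members were among the first 500 rows.

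**Figure D2:**
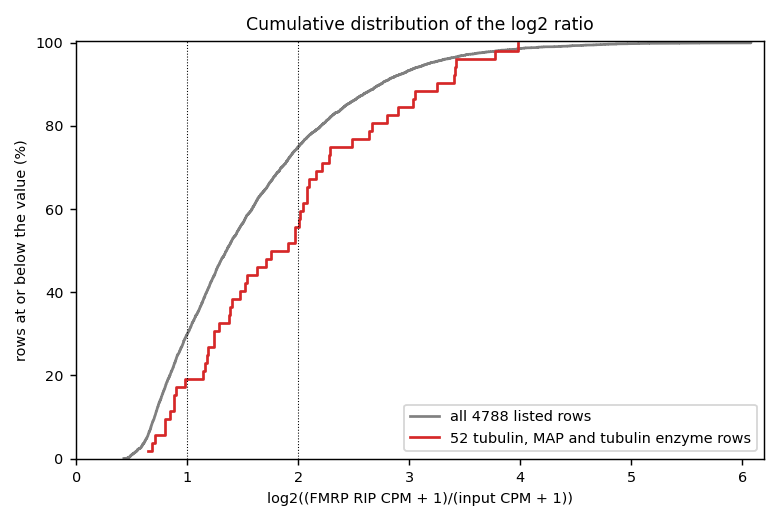
Cumulative share of rows (vertical axis, %) at or below each log2 ratio (horizontal axis) for the 52 member rows and all 4788 listed rows, with dotted lines at 1 and 2. The member line lies to the right, with medians of 1.83 and 1.35, and ends at 3.98, while some other rows reach higher.

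The median of the members lay above that of the table within each range of input level. For the 27 rows from 10 to under 100 CPM in the input the median log2 ratio was 2.08, beside 1.54 for all rows in that range. For the 14 rows from 1 to under 10 CPM it was 1.45 beside 1.29. The ends of the range held few members: the 4 rows under 1 CPM had a median of 1.43 beside 1.0004, and the 7 rows at 100 CPM or more had 2.04 beside 1.56. Input level and log2 ratio had a Spearman's rho of 0.19 over the members and 0.25 over all rows, and the pseudocount lowers the ratio of low genes.

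**Figure D3:**
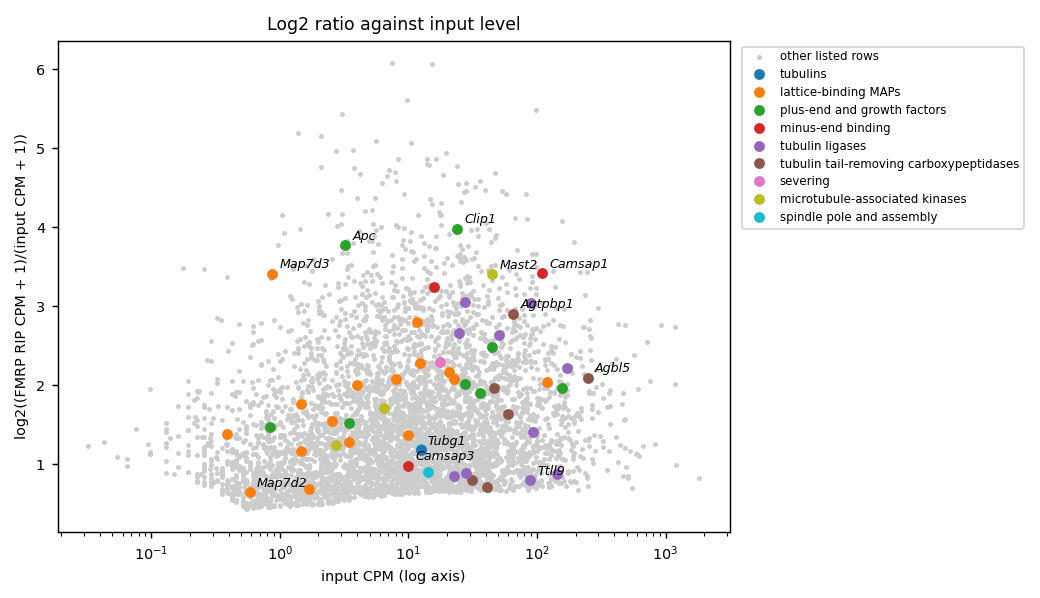
Log2 ratio (vertical axis) against input CPM (horizontal log axis) for 50 member genes, coloured by role, and the other listed rows above 0 in the input (grey). Members reach from *Map9* at 0.39 CPM to *Agbl5* at 249.0 CPM, with *Clip1* highest and *Map7d2* lowest by log2 ratio.

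Among the factors that act at growing plus ends, a pair of genes stood far above the rest. *Clip1* (ENSMUSG00000049550, GRCm38 chr5:123577795-123684618; all positions are in this build), which encodes a protein that tracks growing plus ends, had 24.0 CPM in input (739 reads) and 393.8 CPM after FMRP RIP (14378 reads). Its ratio was 16.4 (95% interval 15.3 to 17.7). *Apc* (ENSMUSG00000005871, chr18:34220924-34322552), the tumour suppressor that binds beta-catenin and microtubule ends, had 3.24 CPM (100 reads) and 56.8 CPM (2075 reads), a ratio of 17.5 (14.3 to 21.7). The intervals of *Clip1* and *Apc* overlap, and their log2 ratios were 3.98 and 3.77. APC is also known as an RNA-binding protein of microtubule-based mRNA transport.

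The other factors of this group lay well below that ratio. *Clasp1*, which stabilises growing ends, had 44.7 CPM in input and 254.1 CPM after FMRP RIP, a ratio of 5.69 (5.37 to 6.02). *Ckap5*, a microtubule polymerase, had 27.7 and 115.1 CPM (ratio 4.16, 3.87 to 4.49). *Tacc1*, of a family that works with CKAP5 at centrosomes, had 36.4 and 139.1 CPM (3.83, 3.59 to 4.08). *Ckap5* and *Tacc1* had overlapping intervals, and both lay below *Clasp1*. *Clip4*, a paralogue of *Clip1* with the same kind of tip-binding domain, had 157.7 CPM in input and 620.3 CPM after FMRP RIP. Its ratio of 3.93 (3.81 to 4.06) left it 2.01 below *Clip1* on the log2 scale. The microtubule-binding *Mtus1* and *Mtus2* were low in the input, at 3.44 CPM (106 reads) and 0.84 CPM (26 reads). They had 11.7 and 4.11 CPM in the FMRP RIP, and their log2 ratios were 1.52 and 1.47. Without the pseudocount the ratio was 3.41 (2.75 to 4.26) for *Mtus1* and 4.88 (3.20 to 7.71) for *Mtus2*. The interval of *Mtus2* overlaps those of *Clasp1*, *Ckap5*, *Tacc1* and *Clip4*. All 8 listed genes of this group had a log2 ratio above 1, beside 70.1% of all listed rows. Their median was 1.99.

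The CAMSAP proteins bind and protect the free minus ends of microtubules, and their 3 genes split in recovery. *Camsap1* (ENSMUSG00000026933, chr2:25926838-25983282) had 109.8 CPM in input (3389 reads) and 1183 CPM after FMRP RIP (43201 reads), a ratio of 10.8 (10.4 to 11.2). It alone held 11.9% of all member reads in the FMRP RIP and 5.20% in the input. *Camsap2* (ENSMUSG00000041570, chr1:136268123-136346104) had 15.8 and 158.0 CPM, with a ratio of 10.03 (9.14 to 11.0). The intervals of *Camsap1* and *Camsap2* overlap, although their reads differ by several fold. *Camsap3* (ENSMUSG00000044433, chr8:3587293-3609075) had 9.98 CPM (308 reads) and 20.7 CPM (756 reads). Its ratio was 2.07 (1.81 to 2.38), 2.43 below *Camsap1* on the log2 scale, and at a log2 ratio of 0.98 it was the first member under 1.

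**Figure D4:**
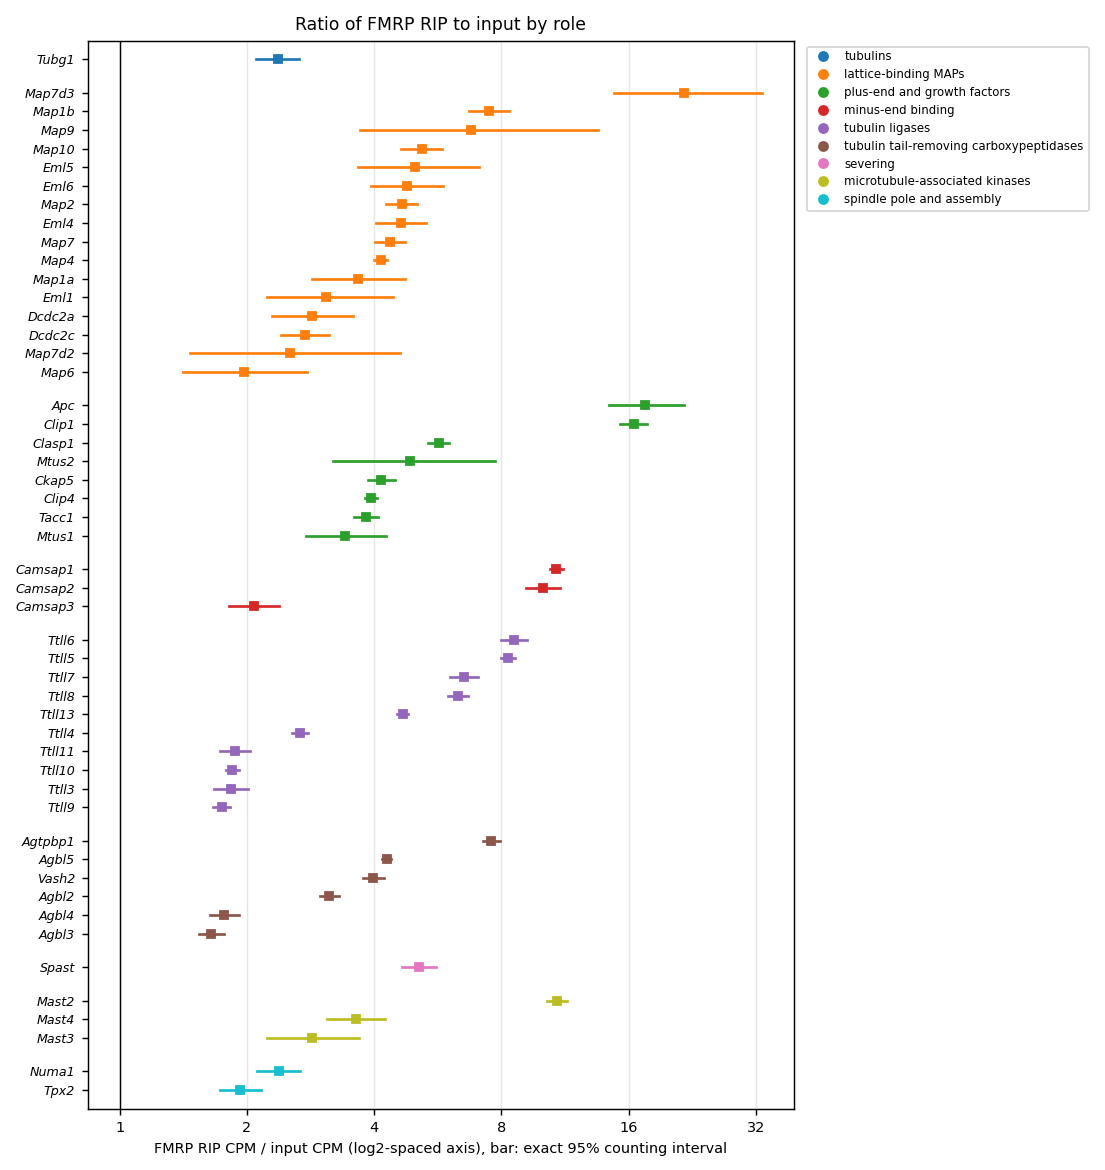
Ratio of FMRP RIP CPM to input CPM (horizontal log2-spaced axis; squares) with exact 95% counting intervals (bars) for 50 member genes, grouped and coloured by role; *Mast3* is drawn once, from its chromosomal row. Within the *Camsap*, *Ttll* and *Mast* groups some genes lie near or above 8 and others near 2 or 3.

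The tubulin tyrosine ligase-like (TTLL) enzymes add glutamate or glycine side chains to tubulin tails, a modification that is abundant on the axoneme. They were the best covered of the large groups, and they fell into a higher and a lower set. Of the 10 listed, 6 had a log2 ratio above 1 and 5 above 2, beside 70.1% and 25.0% of all listed rows. The 5 higher genes had log2 ratios between 2.22 and 3.05, and together 362.6 CPM in input and 2254 CPM after FMRP RIP, a ratio of 6.22. The 5 lower genes had log2 ratios between 0.80 and 1.41, and their 375.6 CPM and 761.8 CPM gave a ratio of 2.03. The division was made after the values were seen.

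In the higher set, *Ttll6* (ENSMUSG00000038756, chr11:96133786-96165451) had 27.5 CPM in input and 235.4 CPM after FMRP RIP, a ratio of 8.55 (7.97 to 9.19). *Ttll5* (ENSMUSG00000012609, chr12:85824659-86061893), a glutamylase known to be needed for male fertility in mice, had 89.7 CPM (2766 reads) and 742.9 CPM (27122 reads), a ratio of 8.29 (7.97 to 8.62). These were the highest of the family, and their intervals overlap. *Ttll7*, a glutamylase of beta-tubulin, had 24.7 and 161.4 CPM (ratio 6.54, 6.06 to 7.06), and *Ttll8*, which starts glycine chains, had 50.5 and 318.6 CPM (6.31, 5.99 to 6.66). *Ttll13*, a glutamylase, had 170.2 CPM in input (5252 reads) and 795.4 CPM after FMRP RIP (29039 reads). Its ratio of 4.67 (4.54 to 4.81) lay below the intervals of the 4 others.

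In the lower set, *Ttll4*, a glutamylase, stood apart with 93.0 CPM in input and 248.1 CPM after FMRP RIP (ratio 2.67, 2.56 to 2.78). The other 4 had ratios between 1.74 and 1.87, and each neighbouring pair had overlapping intervals. They were the glutamylase *Ttll11* (28.0 and 52.5 CPM), the glycine chain elongating enzyme *Ttll10* (143.3 and 264.9 CPM), the glycine chain starting *Ttll3* (22.5 and 41.2 CPM) and the glutamylase *Ttll9* (88.8 and 155.0 CPM). *Ttll9* and *Ttll5*, a pair picked after the values were seen, had 2741 and 2766 input reads and log2 ratios of 0.80 and 3.04. The part of depth in the division was not tested. Over the family, 37 of 45 pairs of genes had intervals that did not overlap. By chemistry, the 3 listed glycylases ran from 0.85 to 2.63 and the 7 listed glutamylases from 0.80 to 3.05 in log2 ratio, so both kinds spanned both sets. *Ttll1*, the catalytic subunit of the glutamylase complex, was not listed, nor were *Ttll2* and *Ttll12*.

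The enzymes that work in the opposite direction also differed widely. Of the 6 listed, 4 had a log2 ratio above 1 and 2 above 2, beside 70.1% and 25.0% of all listed rows. *Agtpbp1* (ENSMUSG00000021557, chr13:59445742-59585227) encodes the deglutamylase CCP1, whose loss in mice gives Purkinje cell degeneration and male infertility. It had 65.2 CPM in input (2011 reads) and 494.0 CPM after FMRP RIP (18033 reads), a ratio of 7.58 (7.24 to 7.94). *Agbl5* (ENSMUSG00000029165, chr5:30888694-30906965), which encodes CCP5 that removes the branch-point glutamate, had 249.0 CPM (7681 reads) and 1067 CPM (38960 reads). Its ratio was 4.29 (4.18 to 4.39), and with *Camsap1* and *Ttll13* it was among the genes that held the most member reads in the FMRP RIP, at 10.7%. *Vash2*, a carboxypeptidase that removes the terminal tyrosine of alpha-tubulin, had 46.1 and 183.4 CPM, a ratio of 3.98 (3.76 to 4.22). *Agbl2* had 59.3 and 186.0 CPM (3.13, 2.98 to 3.30). The lowest were *Agbl4*, with 31.2 and 55.2 CPM (1.77, 1.64 to 1.91), and *Agbl3*, with 40.6 and 66.9 CPM (1.65, 1.54 to 1.77). The listed gene *Bend5*, at a log2 ratio of 0.86, lies wholly within *Agbl4* and covers 3.67% of it. The reads of *Agbl4* are therefore less certain. *Agbl2*, *Agbl3* and *Agbl4* encode other cytosolic carboxypeptidases of the same family. Of the 15 pairs in this group, 13 had intervals that did not overlap, and *Agtpbp1* lay 2.19 above *Agbl3* on the log2 scale. *Agbl1* and *Vash1* were not listed.

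**Figure D5:**
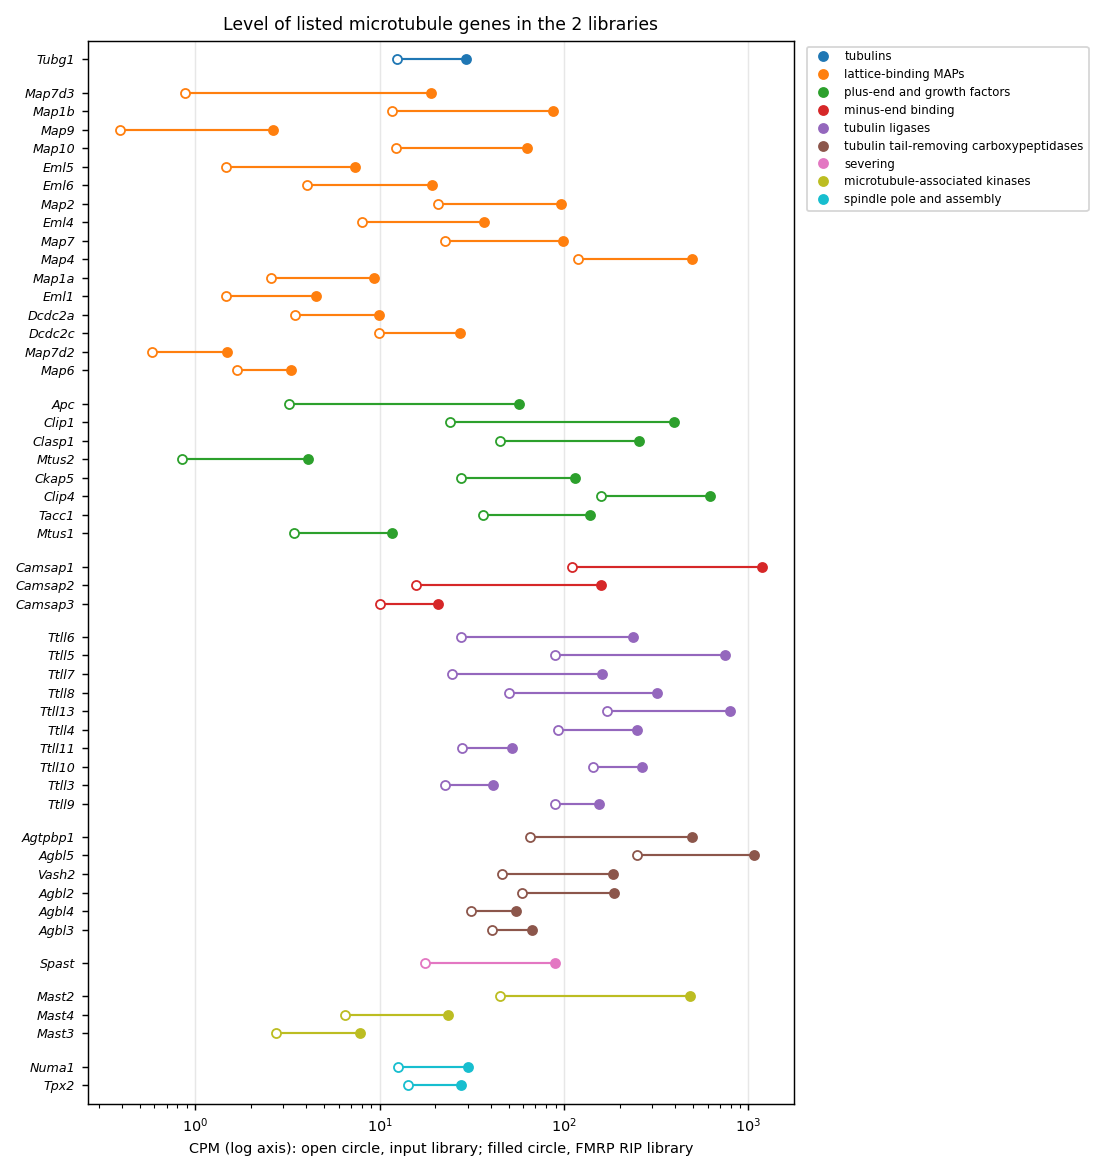
CPM in the input (open circles) and in the FMRP RIP (filled circles) on a log axis for 50 member genes, grouped and coloured by role. The line joining the circles is longest for *Map7d3*, *Apc* and *Clip1*, and *Camsap1* and *Agbl5* reach above 1000 CPM in the FMRP RIP.

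Lattice-binding MAPs were the largest group, with a median log2 ratio of 1.88. Of the 16, 14 were above 1 and 8 above 2, beside 70.1% and 25.0% of all listed rows. The highest was *Map7d3* (ENSMUSG00000067878, chrX:56797858-56822326), of a family of kinesin-1 cofactors, with 0.88 CPM in input (27 reads) and 18.9 CPM after FMRP RIP (691 reads). Its ratio of 21.6 was the highest of all members, with a wide interval of 14.7 to 33.1 that overlaps those of *Apc* and *Clip1*. Its paralogues were lower: *Map7* (22.7 and 99.3 CPM) had a ratio of 4.37 (4.03 to 4.74). *Map7d2* (0.58 and 1.48 CPM, 18 and 54 reads) had 2.54 (1.46 to 4.59). *Map7d2*, also on chromosome X, had the lowest log2 ratio of all members, 0.65.

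The classical structural MAPs lay between those ends. *Map1b*, a MAP best known from growing axons, had 11.7 CPM in input and 87.6 CPM after FMRP RIP (ratio 7.47, 6.70 to 8.35). *Map2*, best known from dendrites, had 20.7 and 96.1 CPM (4.65, 4.27 to 5.06), and *Map4*, the widely expressed MAP of that family, had 119.4 and 495.1 CPM (4.147, 4.002 to 4.297). *Map10* had 12.2 and 63.3 CPM (5.18, 4.64 to 5.79). The intervals of *Map2* and *Map4* overlap, and *Map1b* lay above both. *Map1a* had 2.56 and 9.37 CPM and a log2 ratio of 1.54, and 31.8% of its span is shared with *Trp53bp1*, so its reads are less certain. *Map9*, a spindle-associated MAP, rested on 12 input reads, the fewest of any member, and its ratio of 6.76 had an interval of 3.70 to 13.5. *Map6*, which protects microtubules from cold, had 1.69 and 3.31 CPM and a log2 ratio of 0.68. Of the EMAP-like genes, *Eml4* and *Eml6* had log2 ratios of 2.08 and 2.01, *Eml5* 1.76 and *Eml1* 1.16, all from under 10 CPM in the input. Without the pseudocount *Eml4* had a ratio of 4.62 (4.03 to 5.31) and *Eml6* 4.77 (3.94 to 5.82). *Eml5* had 4.99 (3.66 to 7.06) and *Eml1* 3.08 (2.23 to 4.44), and the intervals of these genes overlap. The doublecortin-domain genes *Dcdc2c* and *Dcdc2a* had log2 ratios of 1.37 and 1.28. Of the 120 pairs of genes in this group, 65 had overlapping intervals, so much of this order is not resolved by counting.

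Severing enzymes cut microtubules. *Spast* (ENSMUSG00000024068, chr17:74338987-74391115), which encodes the severing ATPase spastin, had 17.6 CPM in input (542 reads) and 89.7 CPM after FMRP RIP (3275 reads), a ratio of 5.11 (4.66 to 5.60).

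The MAST kinases, which carry a kinase and a PDZ domain, had 3 of 4 genes listed. *Mast2* (ENSMUSG00000003810, chr4:116306762-116464183), known from the microtubules of the spermatid manchette, had 44.7 CPM in input (1379 reads) and 483.8 CPM after FMRP RIP (17663 reads). Its ratio of 10.8 (10.2 to 11.4) was about that of *Camsap1*. *Mast4* had 6.52 and 23.6 CPM (3.62, 3.10 to 4.24), and *Mast3* had 2.76 and 7.86 CPM (2.85, 2.23 to 3.68). The second row of *Mast3*, on the patch scaffold, had 2.75 and 7.86 CPM and adds no separate gene. Its input reads (84.96) and those of the chromosomal row (85.05) were not whole, and both rows had 287 FMRP RIP reads. How reads were divided between the rows, and so the level of *Mast3*, is uncertain. *Mast2* lay 1.70 above *Mast4* and 2.17 above *Mast3* on the log2 scale, and the intervals of the last pair overlap.

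The nucleation and spindle genes were near the low end. *Tubg1* (ENSMUSG00000035198, chr11:101119938-101126419), which encodes gamma-tubulin that nucleates microtubules, had 12.4 CPM in input and 29.4 CPM after FMRP RIP, a ratio of 2.36 (2.10 to 2.66). Its reads were not whole numbers (383.85 and 1073.83), and its paralogue *Tubg2* was not listed, so how reads were divided between the pair is uncertain. *Numa1*, which anchors spindle poles, had 12.6 and 30.0 CPM (2.38, 2.12 to 2.68). *Tpx2*, which activates Aurora A kinase on the spindle, had 14.3 and 27.7 CPM (1.93, 1.73 to 2.16). These 3 intervals overlap. *Tubg1* and *Eml1*, at 1.18 and 1.16, were among the members just above a log2 ratio of 1, and *Camsap3*, *Tpx2* and *Ttll11*, at 0.98, 0.90 and 0.88, were those just below.

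Other microtubule genes outside the symbol pattern were read from a list of 66 genes, of which 32 were listed on 33 rows. Over all protein-coding genes 21.2% were listed, a share that stands beside each count of listed genes below. Of the 33 rows, 28 (84.8%) were above a log2 ratio of 1, beside 70.1% of all listed rows. The median of the 33 rows was 1.83, the same as that of the members to this precision. The 16 genes of the gamma-tubulin ring and augmin complexes, which nucleate microtubules, had 5 listed, with *Tubgcp4* highest (1.39) and *Nedd1* lowest (0.74). None was above 2, beside 25.0% of all listed rows. Of the 24 genes of spectraplakins, tip-tracking proteins and depolymerising kinesins, 15 were listed. *Dst*, a spectraplakin that links microtubules to actin and intermediate filaments, was highest at 4.86, with 16.4 CPM in input and 506.4 CPM after FMRP RIP. Of the 26 other genes for tubulin modification, bundling and microtubule anchoring, 12 were listed, with the centrosomal *Cdk5rap2* highest at 4.31 (25.6 and 528.6 CPM). Beside these, the listed kinesins had a median log2 ratio of 1.498 (34 rows), the axonemal dynein heavy chains 1.93 (15 rows) and the centrosomal genes 2.52 (33 rows). The families share both libraries and some genes, and no test of their difference was made.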

How the data were processed

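Per the labels, testis lysate of wild type mice gave an input and an anti-FMRP RIP library, each sequenced as paired ends. The submitters' processing notes name STAR and GRCm38 (mm10), and the counting tool, annotation and handling of strand are not given in the sources used here. The authors deposited CPM values per gene beside their own edgeR fold changes and p-values, which were not used. No count test was run, because each group has 1 library and only 78.4% of input and 78.8% of FMRP RIP values above 0 were whole reads (within 0.005), and 36 of the 52 member rows were whole in both libraries. Fractional reads were rounded for the intervals. *Clip1*, *Camsap1* and *Ttll5* were among the rows that were not whole, and their reads are given rounded. All members were above a floor of 3 reads, equal to 0.0972 CPM (input) and 0.0822 CPM (FMRP RIP). PCR reads are not independent molecules, so intervals cover counting error only.

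The members, role groups and lists were chosen with earlier results of these data known. The listed genes of each role group were named, with 1 exception given below. Symbols were matched to RefSeq (GRCm38.p6), where all 51 were found. Of the members, 1 entered the counts and medians but is not reported here by name. Protein and transcript lengths were not used here. Functions were tested on simulated libraries. Work was done in Python 3.11.15 with scipy 1.17.1, pandas 2.3.3, numpy 2.4.6 and, for plots, matplotlib 3.10.9. Alternatives were a higher, a lower and no pseudocount, 2 filters on low values, another library scaling, 1 row per gene and current symbols only.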

Additional observations from a re-analysis of the deposited data

How the results depend on the processing

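Of the 52 member rows, 42 (80.8%) were above a log2 ratio of 1, beside 70.1% of all listed rows. With the pseudocount raised to 5 CPM these were 31 (59.6%) beside 51.7%, and with it lowered below 1 CPM 44 (84.6%) beside 79.7%. Without it they were 44 (84.6%) beside 81.2%. With at least 1 CPM in both libraries, 39 of 48 (81.2%) stood beside 72.7%, and with at least 10 CPM in the input 27 of 34 (79.4%) beside 78.1%. Scaling each library to its reads outside the listed genes, which multiplies the FMRP RIP by 1.92, put all 52 members and all 4788 rows above 1, so that count separates nothing there. At a ratio of 1.5 or more, 48 members (92.3%) stood beside 77.4% with 5 CPM, and all 34 rows left with at least 10 CPM in the input stood beside all 2317. Without a pseudocount the selection had already put the listed rows past this limit. The genes lost above 1 at 5 CPM had 12.6 CPM or less in the input.

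The members' median of 1.83 (all rows 1.35) was 1.496 with 5 CPM (1.04), 2.02 with the lowered pseudocount (1.57) and with none (1.61), 2.06 with at least 10 CPM in the input (1.54) and 2.76 with scaling to other reads (2.27). With 5 CPM the medians were 1.27 for lattice-binding MAPs, 2.97 for *Camsap* and 1.021 for *Mast* genes. Without a pseudocount the plus-end group had 2.17, and with at least 10 CPM in the input only *Mast2* was left of its group, at 3.41. Scaling to other reads gave 2.81 for MAPs, 2.93 for plus-end factors, 4.19 for *Camsap*, 2.75 for *Ttll*, 2.74 for carboxypeptidases and 2.39 for *Mast*. Of 393 values of single genes, 92 moved by more than the distance from the centre to the end of their log2 counting interval. These were 50 of 52 with that scaling, 33 of 52 with 5 CPM, 5 of 52 with no pseudocount and 4 of 52 with the lowered one. The filters, 1 row per gene and current symbols only drop rows, so no value of a single gene could move there. The direction of a listed gene was fixed by the selection, so none could reverse. The 8 highest members were the same without a pseudocount, with *Map7d3* first in place of *Clip1*, and with 5 CPM *Agtpbp1* took the place of *Map7d3*.

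No paired analysis was possible because input and FMRP RIP are 1 library each. Depth limits the 10 rows under 100 input reads.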
